A study of Homo sapiens with 6 samples.

Results

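Glutathione is the main low-molecular-weight thiol of the cell, and the 10 genes described here cover its supply, synthesis, reduction and breakdown: SLC7A11, SLC3A2, CBS, CTH, GCLC, GCLM, GSS, GSR, CHAC1 and CHAC2. They were chosen by name for their place in the pathway, with earlier results of these data known. Counts among them are therefore not those of an independently chosen set. Every probe set annotated with one of these symbols alone was taken, which gave 21 of the 54613 probe sets on the array. No probe set named a listed gene together with another gene. The samples were 3 arrays of LP-1/Cfz cells and 3 arrays of parental LP-1 cells. The parental cells, LP-1, were established from human multiple myeloma. LP-1/Cfz is 1 derivative of them, grown in stepwise rising concentrations of carfilzomib, an inhibitor of the proteasome, until it was resistant to 12 nM. LP-1/Cfz cells had been without drug for 1 week when RNA was taken, the parental cells had not been selected, and the labels give the same medium with 4% fetal bovine serum for both. As only 1 resistant derivative was profiled, a change that follows selection and a change that arose by chance in this derivative cannot be told apart, and the labels do not say whether triplicates came from separate cultures, so that a p-value here reflects the spread among these arrays, which may be technical.

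Cells take up cystine through an antiporter made of SLC7A11 (xCT), the chain that carries the amino acid, and SLC3A2 (4F2hc), the heavy chain that brings it to the membrane. Cystine is reduced to cysteine, which can also be made from homocysteine by CBS and then CTH, the enzymes of transsulfuration. Glutamate-cysteine ligase, composed of the catalytic subunit GCLC and the modifier subunit GCLM, joins glutamate to cysteine in the rate-limiting step, and GSS adds glycine. GSR returns oxidised glutathione to its reduced form with NADPH, while CHAC1 and CHAC2 cleave glutathione in the cytosol. Several of these genes are known targets of Nrf2, which binds antioxidant response elements, and of ATF4, the transcription factor of the integrated stress response.

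Promoter windows were read from RefSeq (GRCh38.p14, 250 bases before and 50 after each annotated start) for 7 genes. These were SLC3A2, CBS, CTH, GCLC, GCLM, CHAC1 and CHAC2, in 12 windows. SLC7A11 and GSS have no entry in the table of windows, and no window of GSR was read. Both strands were searched for the core of the antioxidant response element, TGACNNNGC, and for the C/EBP-ATF response element bound by ATF4, TGATGNAAN, and 4 windows that hold a match are shown because CHAC1, GCLM and CBS are among the genes that differed below and SLC3A2 is the partner of SLC7A11. Each window is given 5′ to 3′ on the strand of its gene, with the matched bases in capitals.
CHAC1, chr15:40953221-40953520, plus strand: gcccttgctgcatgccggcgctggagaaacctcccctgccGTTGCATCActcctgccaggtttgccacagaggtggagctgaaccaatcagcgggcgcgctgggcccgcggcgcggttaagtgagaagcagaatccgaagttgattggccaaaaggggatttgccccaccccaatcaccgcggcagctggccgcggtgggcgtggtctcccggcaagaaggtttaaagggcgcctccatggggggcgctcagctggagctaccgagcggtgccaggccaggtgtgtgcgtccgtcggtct
GCLM, chr1:93909381-93909680, minus strand: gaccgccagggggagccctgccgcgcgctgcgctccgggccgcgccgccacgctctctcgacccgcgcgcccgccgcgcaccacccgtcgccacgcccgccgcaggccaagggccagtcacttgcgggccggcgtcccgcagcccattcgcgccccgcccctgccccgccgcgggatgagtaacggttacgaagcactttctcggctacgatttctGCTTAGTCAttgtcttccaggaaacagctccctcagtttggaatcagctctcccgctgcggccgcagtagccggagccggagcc
CBS, chr21:43076328-43076627, minus strand: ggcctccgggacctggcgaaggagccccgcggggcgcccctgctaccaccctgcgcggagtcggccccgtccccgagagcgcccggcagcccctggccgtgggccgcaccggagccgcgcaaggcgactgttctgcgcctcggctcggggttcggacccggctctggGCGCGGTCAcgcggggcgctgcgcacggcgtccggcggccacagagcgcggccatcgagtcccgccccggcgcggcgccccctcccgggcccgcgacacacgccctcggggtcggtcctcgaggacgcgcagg
SLC3A2, chr11:62881449-62881748, plus strand: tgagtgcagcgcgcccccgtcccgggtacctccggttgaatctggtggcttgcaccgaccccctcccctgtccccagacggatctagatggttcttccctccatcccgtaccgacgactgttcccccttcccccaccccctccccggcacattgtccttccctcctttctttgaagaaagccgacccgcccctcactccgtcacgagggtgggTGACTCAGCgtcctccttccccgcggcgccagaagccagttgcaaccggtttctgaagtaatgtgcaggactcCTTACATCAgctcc

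In CHAC1 the match was to the ATF4 element, read on the opposite strand as TGATGCAAC, with its first base at position -210 from the start. GCLM held an antioxidant response element core, TGACTAAGC, and CBS held TGACCGCGC, both on the opposite strand, with the first base at -34 and -83. The SLC3A2 window held both motifs, TGACTCAGC before the start and TGATGTAAG after it. No match of one motif overlapped a match of the other. Among all 35116 promoter windows of this length, 13.3% held the antioxidant response element core and 3.61% the ATF4 element, so that a match in a single window is a description of its letters only. The windows of CTH, GCLC and CHAC2 and the other windows of CBS and SLC3A2 held neither.

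The deposited log2 values are centred on a baseline per probe set that is not stated, so that a value of 0 has no meaning of its own, and only differences between arrays are read. The median of each array lay between 0.00302 and 0.0215. LP-1/Cfz replicate 3 stood apart, its values spreading over an interquartile range of 0.338 (the others 0.230 to 0.264) and its limma array weight being 0.389 (the others 0.951 to 1.51). It gave the lowest of the 3 LP-1/Cfz values for 19 of the 21 glutathione probe sets (90.5%), where it was lowest for 45.0% of all probe sets, and its part in these results is given below by the fits without it. Centred values cannot show whether a marker is present. Of 8 plasma cell markers, 3 were higher in LP-1/Cfz, SDC1, TNFRSF17 and MZB1, and 2 lower, CD38 and SLAMF7. Over all genes 16.7% passed in either direction. The summed value of the plasma cell markers lay between 0.570 and 1.43 on the LP-1/Cfz arrays and between 3.07 and 3.30 on the LP-1 arrays. This sum is weighted by the large falls of SLAMF7 (log2 fold change -2.17) and CD38 (-1.07). SDC1, TNFRSF17 and MZB1 rose by 0.38, 0.27 and 0.39, and IRF4, PRDM1 and XBP1 did not pass. The sum therefore shows no general fall of these markers. Of 5 T and NK cell markers CD8A was higher, and of 4 myeloid and 5 stromal markers 0 passed the test. The part of these shifts in the results was not tested.

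SLC7A11 and CHAC1 were the glutathione genes with the largest differences between LP-1/Cfz and LP-1. Averaged over its probe sets SLC7A11 was 1.74-fold higher, and CHAC1, with 1 probe set, 2.13-fold. GCLM, CBS, CTH and GSR were lower by smaller amounts. By limma over all probe sets, 3 of the 21 glutathione probe sets were higher and 4 lower at an adjusted p under 0.05. Over all 54613 probe sets 11.0% passed, 4.25% higher and 6.76% lower. When the probe sets of a gene were averaged, 7 of the 10 genes passed, where 16.7% of all 19775 genes did. SLC7A11, CHAC1 and GSS were higher and GCLM, CBS, CTH and GSR lower, beside 1328 higher and 1984 lower among all genes. The lower calls were near the threshold: of the 4 lower probe sets, 2 kept their call without any one of LP-1/Cfz replicates 1 to 3 or without LP-1 replicate 1, and 0 kept it without LP-1 replicate 2 or without LP-1 replicate 3. The median log2 fold change was -0.10 over the 21 probe sets and -0.046 over the 10 genes, beside 0.017 over all probe sets and 0.017 over all genes. At a fold change of 1.7 or more, the cutoff used in the study, 3 of the 21 probe sets differed, 2 of SLC7A11 and 1 of CHAC1, as did 1.59% of all probe sets. For 16 of the 21 probe sets the LP-1/Cfz and LP-1 values did not overlap, beside 30.7% of all probe sets, and the same held for 9 of the 10 genes, beside 35.9% of all genes. In a bulk RNA sample, a lower number of cells that express a gene and less RNA of it per cell cannot be told apart.

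**Figure D1:**
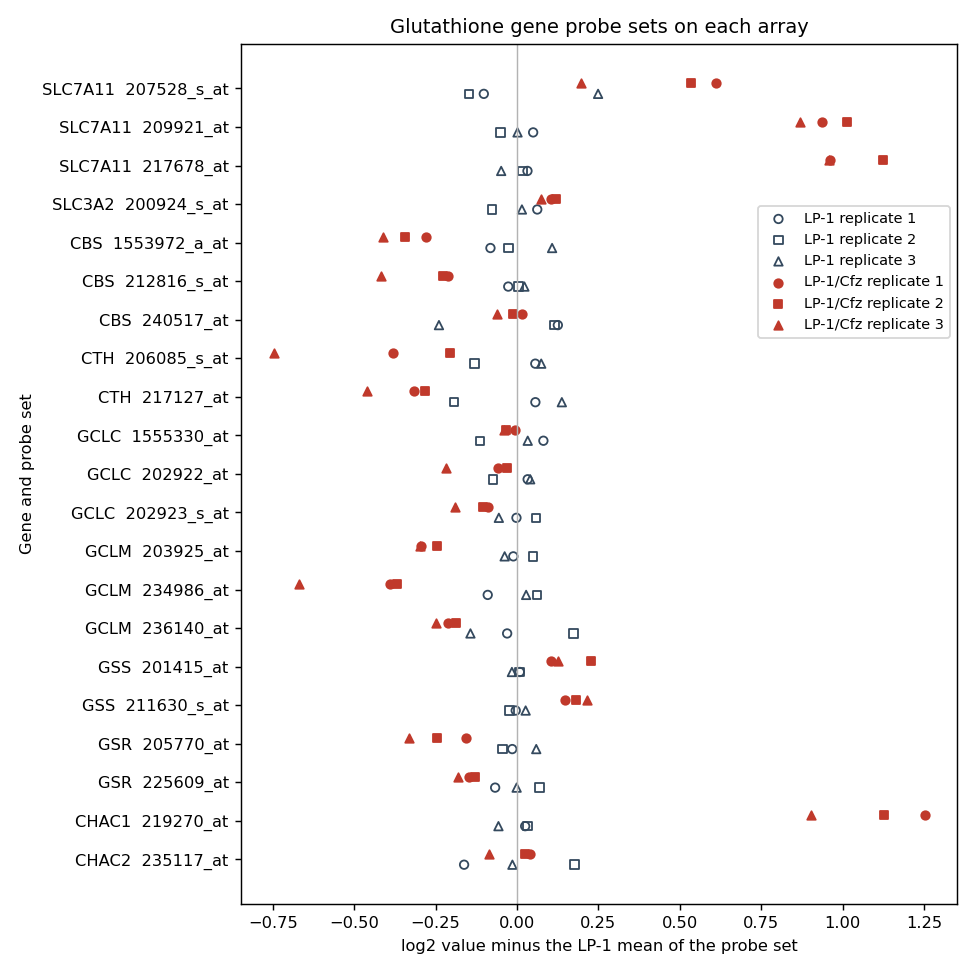
Values of the 21 glutathione probe sets on the 6 arrays. The horizontal axis gives each log2 value after subtracting the mean of the LP-1 arrays for that probe set, filled symbols are LP-1/Cfz arrays, open symbols are LP-1 arrays, and the symbol shape gives the replicate number. The LP-1/Cfz points of SLC7A11 probe sets 209921_at and 217678_at and of CHAC1 lie to the right of all LP-1 points, and LP-1/Cfz replicate 3 (filled triangle) is the lowest of its group for 19 of 21 probe sets.

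Of the cystine antiporter's chains, SLC7A11 was higher and SLC3A2 did not pass the test. On SLC7A11 probe set 217678_at the centred log2 values were 0.56, 0.72 and 0.56 in LP-1/Cfz replicates 1 to 3 and -0.37, -0.39 and -0.45 in LP-1 replicates 1 to 3, a 2.02-fold higher value (log2 fold change 1.01, standard error 0.070, adjusted p = 0.000111). On 209921_at they were 0.51, 0.59 and 0.45 in LP-1/Cfz and -0.38, -0.48 and -0.42 in LP-1 (log2 fold change 0.94, standard error 0.066, adjusted p = 0.000121). The groups lay far apart on both probe sets, with standard deviations of 0.094 or less within a group. The third probe set, 207528_s_at, gave 0.39, 0.31 and -0.026 in LP-1/Cfz and -0.33, -0.37 and 0.026 in LP-1. Here the third replicate of each group lay near 0 and the groups overlapped (log2 fold change 0.45, 95% interval 0.13 to 0.77, adjusted p = 0.0859). The third probe set passed without LP-1/Cfz replicate 3 (0.57, adjusted p = 0.0339). The difference between 217678_at and 207528_s_at on the same array was 0.17, 0.41 and 0.58 in LP-1/Cfz and -0.045, -0.016 and -0.48 in LP-1, with no overlap, a difference between probe sets of 1 gene that was not tested. Averaged over its 3 probe sets SLC7A11 was 1.74-fold higher (log2 change 0.80, 95% interval 0.64 to 0.96, adjusted p = 0.000236).

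SLC3A2, the heavy chain shared with other amino acid transporters, has 1 probe set. Its values were 0.038, 0.054 and 0.0053 in LP-1/Cfz and -0.0053, -0.14 and -0.052 in LP-1. The groups did not overlap, but the difference was small and did not pass the test (log2 fold change 0.10, 95% interval -0.047 to 0.25, adjusted p = 0.395). The interval leaves room for a rise of up to 0.25 on the log2 scale, well under that of SLC7A11. The difference of SLC7A11 minus SLC3A2 on the same array was 0.45, 0.49 and 0.32 in LP-1/Cfz against -0.35, -0.27 and -0.23 in LP-1. It was larger by 0.70 in LP-1/Cfz, with no overlap (exact two-sided permutation test over 20 splits, p = 0.1, the smallest p that 3 against 3 arrays allow, and 0.133 adjusted over 4 pairs).

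Both transsulfuration enzymes were lower in LP-1/Cfz, and for both the calls were near the threshold. CBS, which condenses homocysteine with serine, was measured by 3 probe sets. On 1553972_a_at the values were -0.099, -0.16 and -0.23 in LP-1/Cfz and 0.099, 0.15 and 0.29 in LP-1 (log2 fold change -0.35, standard error 0.074, adjusted p = 0.0221). On 212816_s_at they were -0.093, -0.11 and -0.30 in LP-1/Cfz and 0.093, 0.12 and 0.14 in LP-1 (log2 fold change -0.29, standard error 0.074, adjusted p = 0.0456). On both of these probe sets all LP-1/Cfz values lay below all LP-1 values. The third, 240517_at, overlapped between groups (log2 fold change -0.020, 95% interval -0.26 to 0.22, adjusted p = 0.931), and the gene mean fell by 0.22 on the log2 scale (adjusted p = 0.0328). The call of the gene mean held without LP-1/Cfz replicate 1 (adjusted p = 0.0465), and was lost without LP-1/Cfz replicates 2 or 3 (0.0609 and 0.0518) or LP-1 replicates 1, 2 or 3 (0.105, 0.111 and 0.0775). For 1553972_a_at it held without LP-1/Cfz replicate 1 or LP-1 replicate 1 (0.0438 and 0.0427), and was lost without LP-1/Cfz replicates 2 or 3 (0.0561 and 0.0520) or LP-1 replicates 2 or 3 (0.0679 and 0.0884). For 212816_s_at no fit with 1 array left out kept the call (0.0651 to 0.149).

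CTH, which releases cysteine from cystathionine, gave on 206085_s_at -0.21, -0.037 and -0.58 in LP-1/Cfz and 0.22, 0.037 and 0.24 in LP-1. On 217127_at it gave -0.080, -0.044 and -0.22 in LP-1/Cfz and 0.29, 0.044 and 0.38 in LP-1. The groups did not overlap on either probe set, although replicate 2 of each group lay close to the other, and neither passed alone (log2 fold changes -0.44 and -0.35, adjusted p = 0.0802 and 0.0598). Their mean did, with a log2 fold change of -0.40 (95% interval -0.65 to -0.15, adjusted p = 0.0400). Without LP-1/Cfz replicate 2, 206085_s_at passed (-0.56, adjusted p = 0.0340), whereas without LP-1/Cfz replicate 3 its value was -0.29 (adjusted p = 0.105), and without LP-1 replicate 2, 217127_at passed (-0.45, adjusted p = 0.0282). The gene mean held without either of these (0.0292 and 0.0371) and was lost without LP-1/Cfz replicates 1 or 3 (0.0774 and 0.0732) or LP-1 replicates 1 or 3 (0.120 and 0.133). CTH and CBS did not separate from each other, the difference of CTH minus CBS being -0.074, 0.068 and -0.19 in LP-1/Cfz and 0.17, -0.076 and 0.26 in LP-1 (exact permutation p = 0.3, adjusted 0.3).

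**Figure D2:**
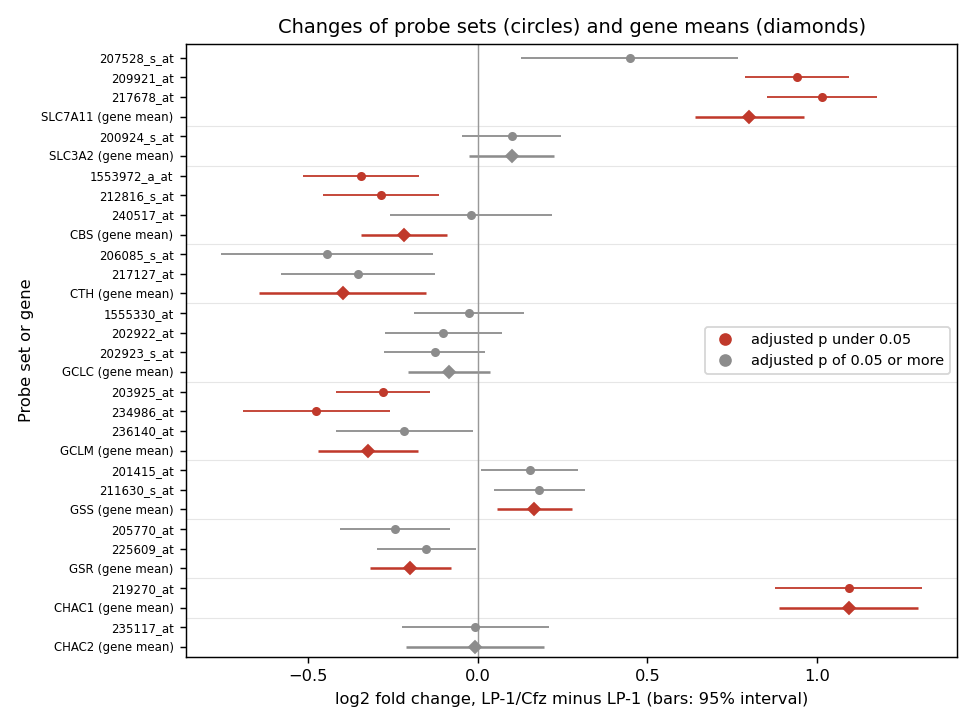
Log2 fold change of each glutathione probe set (circles) and of the mean of each gene (diamonds), LP-1/Cfz minus LP-1, with the 95% interval from limma as bars. Red marks an adjusted p under 0.05. The intervals of GSS, GSR and CTH probe sets lie on 1 side of 0 although the probe sets alone did not pass after adjustment, while the CHAC2 and GCLC intervals include 0.

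Of the subunits of glutamate-cysteine ligase, GCLM was lower in LP-1/Cfz, and GCLC did not pass the test. GCLM had a negative log2 fold change on each of its 3 probe sets, and 2 of these passed. On 234986_at the values were -0.62, -0.60 and -0.90 in LP-1/Cfz and -0.32, -0.17 and -0.20 in LP-1 (log2 fold change -0.48, standard error 0.094, adjusted p = 0.0161). On 203925_at they were -0.30, -0.25 and -0.31 in LP-1/Cfz and -0.018, 0.043 and -0.045 in LP-1 (log2 fold change -0.28, standard error 0.060, adjusted p = 0.0218). No LP-1/Cfz value of either probe set reached the lowest LP-1 value. The third, 236140_at, had a log2 fold change of -0.22 (95% interval -0.42 to -0.015, adjusted p = 0.176), also without overlap. Its value was -0.13 without LP-1 replicate 2 and -0.13 with quantile normalization (adjusted p = 0.397 and 0.460). The gene mean of GCLM fell by 0.32 on the log2 scale, a 1.25-fold lower value (95% interval -0.47 to -0.18, adjusted p = 0.0110), and this call held in all 6 fits that left out 1 array (adjusted p from 0.0200 to 0.0422). By probe set, 234986_at lost its call without LP-1 replicates 2 or 3 (0.0705 and 0.0667), and 203925_at lost it without LP-1/Cfz replicate 1 (0.0704) or LP-1 replicates 1, 2 or 3 (0.0784, 0.0866 and 0.0652).

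For GCLC, the catalytic subunit, 0 of 3 probe sets passed, with log2 fold changes of -0.026, -0.10 and -0.13 and adjusted p values of 0.278 or more. The gene values were -0.011, -0.016 and -0.11 in LP-1/Cfz and 0.077, -0.0034 and 0.045 in LP-1. For this gene mean the groups did not overlap, by a narrow margin (log2 fold change -0.085, 95% interval -0.21 to 0.037, adjusted p = 0.332). By probe set, the groups overlapped on 1555330_at and 202922_at and did not on 202923_s_at. On the same array GCLC minus GCLM was 0.49, 0.45 and 0.49 in LP-1/Cfz and 0.32, 0.10 and 0.29 in LP-1. That difference was larger by 0.24 in LP-1/Cfz with no overlap (exact permutation p = 0.1, adjusted 0.133). As 0.1 is the smallest p that 3 against 3 arrays allow, no pair could pass this test. The difference compares the changes of GCLC and GCLM and not their levels. GSS, the second enzyme of synthesis, had 0.86, 0.99 and 0.89 on 201415_at in LP-1/Cfz against 0.77, 0.77 and 0.74 in LP-1. On 211630_s_at it had 0.81, 0.84 and 0.87 against 0.66, 0.64 and 0.69. All LP-1/Cfz values were above all LP-1 values, yet neither probe set passed (log2 fold changes 0.15 and 0.18, adjusted p = 0.179 and 0.0947). Their mean rose by 0.17, a 1.12-fold higher value (standard error 0.047, adjusted p = 0.0482), and lost its call without any one of the 6 arrays (0.0651 to 0.140) and with quantile normalization (0.0586) or each array centred on its median (0.0662).

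GSR, glutathione reductase, was lower in LP-1/Cfz by a small amount. On 205770_at the values were 0.34, 0.25 and 0.16 in LP-1/Cfz and 0.48, 0.45 and 0.55 in LP-1 (log2 fold change -0.24, adjusted p = 0.0656). On 225609_at they were 0.080, 0.097 and 0.044 against 0.16, 0.29 and 0.22 (log2 fold change -0.15, adjusted p = 0.187). The groups did not overlap on either probe set. Averaged, GSR fell by 0.20 on the log2 scale (95% interval -0.32 to -0.079, adjusted p = 0.0363), and that call was lost without any one array (0.0559 to 0.135).

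Of the cytosolic enzymes that break glutathione down, CHAC1 was higher and CHAC2 did not pass the test. CHAC1, known as a gene induced by ATF4, was 2.13-fold higher on its single probe set, 219270_at, with 0.79, 0.66 and 0.44 in LP-1/Cfz and -0.44, -0.44 and -0.52 in LP-1 (log2 fold change 1.09, standard error 0.094, 95% interval 0.88 to 1.31, adjusted p = 0.000326). The lowest LP-1/Cfz value, that of replicate 3, was still far above the highest LP-1 value, and without that array the log2 fold change was 1.19 (adjusted p = 0.000233). CHAC2, the paralog that is generally regarded as constitutive and slower, gave 0.055, 0.039 and -0.072 in LP-1/Cfz and -0.15, 0.19 and 0.00052 in LP-1. These groups overlapped (log2 fold change -0.0076, 95% interval -0.22 to 0.21, adjusted p = 0.973). The difference of CHAC1 minus CHAC2 was 0.73, 0.62 and 0.51 in LP-1/Cfz and -0.29, -0.63 and -0.52 in LP-1, 1.10 larger in LP-1/Cfz with no overlap (exact permutation p = 0.1, adjusted 0.133).

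**Figure D3:**
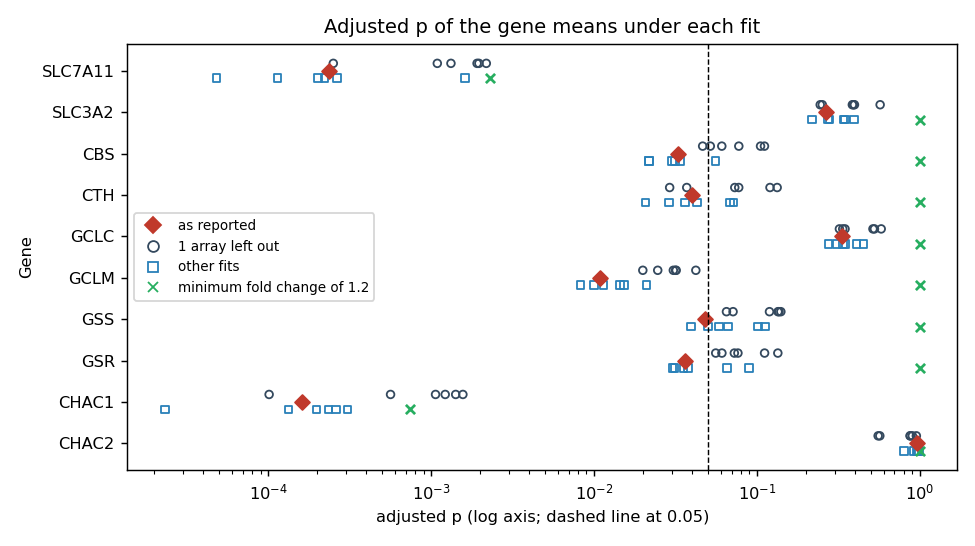
Adjusted p of the mean of each glutathione gene under each fit, on a log axis with a dashed line at 0.05. Red diamonds are the values reported here, open circles are the 6 fits with 1 array left out, squares are the other fits and green crosses the test against a minimum fold change of 1.2. All symbols of SLC7A11 and CHAC1 lie left of the line, those of GCLM do so except the green cross, and those of CBS, CTH, GSS and GSR lie on both sides.

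Around the 10 genes, 136 further genes of glutathione metabolism and its supply were listed, also with earlier results known, and 127 were measured. Of these, LP-1/Cfz had 10 at a higher and 24 at a lower value, 26.8% against 16.7% of all genes, with a median log2 fold change of 0.033. The lower count was 15 without LP-1 replicate 1 and 13 without LP-1 replicate 3. The 2 largest differences were in amino acid supply. GLUL, which turns glutamate into glutamine, had -2.16 on the log2 scale (adjusted p = 3.65e-07), PSAT1, an enzyme of serine synthesis, -1.72 (adjusted p = 3.42e-06), and SLC1A4, a carrier of small neutral amino acids, -0.32 (adjusted p = 0.00319). Higher in that list were SLC38A2, a sodium-coupled carrier of neutral amino acids, at 0.48 (adjusted p = 0.00145) and SLC38A5 at 0.27 (adjusted p = 0.00874). In all 2 of 21 measured genes of amino acid supply were higher and 4 lower (28.6% called).

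In the methionine cycle, which feeds homocysteine into transsulfuration, and in cysteine use, 2 of 19 genes were higher and 6 lower. That is 42.1% called, beside 16.7% of all genes. SQOR, which oxidises hydrogen sulfide in mitochondria, had a log2 fold change of -0.45 (adjusted p = 0.00504), MAT2B, a regulatory subunit of methionine adenosyltransferase, -0.30 (adjusted p = 0.0134) and ADO, a thiol dioxygenase, -0.27 (adjusted p = 0.00890). AHCYL2 had 0.34 (adjusted p = 0.00702) and TST, a sulfurtransferase, 0.28 (adjusted p = 0.00859). Of 19 genes of the gamma-glutamyl cycle and glutathione export 0 were higher and 4 lower (21.1% called, beside the same 16.7%). The largest change was that of ABCC1, an exporter of glutathione conjugates (-0.34, adjusted p = 0.00310). It was followed by CNDP2, a dipeptidase that cleaves cysteinylglycine (-0.27, adjusted p = 0.0101), and ABCC5 (-0.22, adjusted p = 0.0203). These counts describe the lists and were not tested against other genes.

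Of 15 peroxidases, glutaredoxins and related enzymes that use glutathione 1 was higher and 2 lower (20% called, beside 16.7% of all genes): HAGH, the hydrolase that frees glutathione from its lactoyl conjugate, had a log2 fold change of 0.57 (adjusted p = 0.000599), GPX4 -0.26 (adjusted p = 0.0143) and GLRX, a glutaredoxin, -0.19 (adjusted p = 0.0219). Of 20 glutathione transferases 0 were higher and 1 was lower (5% called), GSTO1 (-0.29, adjusted p = 0.00625). Of 19 genes of NADPH supply, on which GSR depends, 2 were higher and 4 lower (31.6% called). IDH2, the mitochondrial NADP-linked isocitrate dehydrogenase, had -0.86 (adjusted p = 0.000134), ALDH1L2, a mitochondrial formyltetrahydrofolate dehydrogenase, -0.43 (adjusted p = 0.0224) and ME2, a mitochondrial malic enzyme, -0.35 (adjusted p = 0.00302). NADK2, the mitochondrial NAD kinase, had 0.27 (adjusted p = 0.0278) and H6PD 0.19 (adjusted p = 0.0336).

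**Figure D4:**
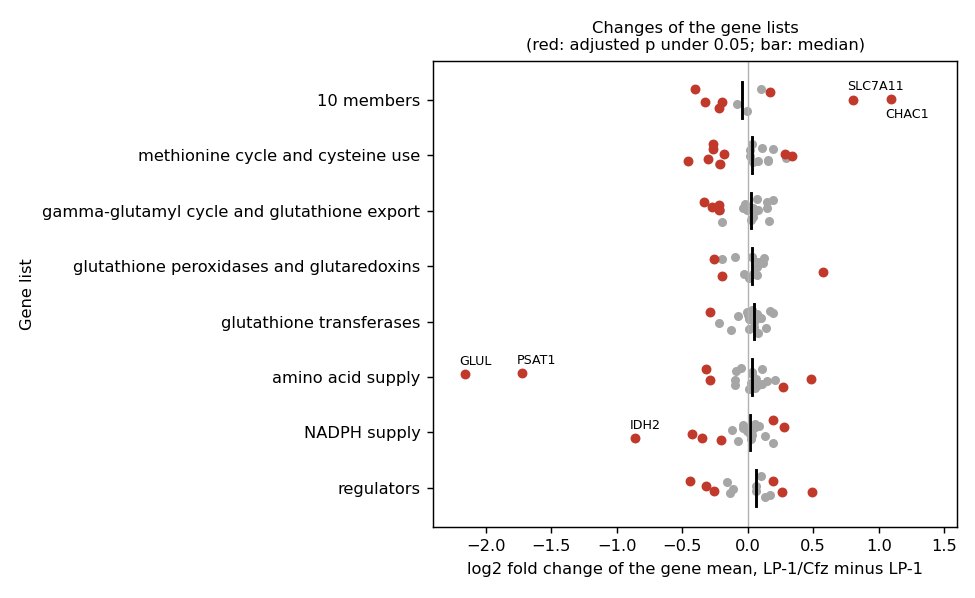
Log2 fold change of the gene mean, LP-1/Cfz minus LP-1, for the 10 glutathione genes and for 7 lists of related genes. Each point is a gene, red points have an adjusted p under 0.05, and the black bar is the median of the list. SLC7A11 and CHAC1 lie to the right of all other points, and GLUL, PSAT1 and IDH2 far to the left.

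The regulators of these genes moved in both directions. ATF4, ATF3 and CEBPB were higher, by log2 fold changes of 0.26 (adjusted p = 0.00711), 0.49 (adjusted p = 0.000865) and 0.19 (adjusted p = 0.0295). TRIB3, a pseudokinase that restrains ATF4, had -0.44 (adjusted p = 0.00149), ATF5 -0.32 (adjusted p = 0.00489) and KEAP1, the adaptor that sends Nrf2 to degradation, -0.26 (adjusted p = 0.00910). The mRNA of NFE2L2, which encodes Nrf2, had 0.062 (95% interval -0.050 to 0.17, adjusted p = 0.445). DDIT3, which encodes CHOP, had 0.10 (adjusted p = 0.203), and NFE2L1, BACH1, MAFF, MAFG, NUPR1 and MYC had -0.16 to 0.17 and did not pass. Among genes known as targets of the ATF4 response, CHAC1, ATF3, SLC7A11 and SLC38A2 were higher. TRIB3, ATF5, PSAT1 (-1.72), SLC1A4 and CTH were lower, the last with a call near the threshold. DDIT3 and SLC3A2 did not pass. The targets of ATF4 were not counted as a set. These examples do not show which way the response as a whole moved.

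Of the 100 genes that are the 5 nearest measured neighbours on each side, 5 were higher and 8 lower, beside 16.7% of all genes that passed in either direction, with a median log2 fold change of 0.0039. For GCLM and CTH, both on chromosome 1 and both lower, 0 of 10 neighbours passed in either case. SLC7A11 on chromosome 4 had 1 higher neighbour, NDUFC1 (0.37, adjusted p = 0.00282), and 1 lower, PCDH18 (-0.32, adjusted p = 0.0108), and CHAC1 on chromosome 15 had 1 that passed, OIP5-AS1, which was lower (-0.34, adjusted p = 0.00384). GSR on chromosome 8 had 3 lower neighbours, LEPROTL1 (-0.21), DCTN6 (-0.20) and GTF2E2 (-0.23), close to its own -0.20, with a median of -0.14 over the 10. GSS on chromosome 20 had 2 higher neighbours, TP53INP2 (0.48) and ACSS2 (0.46), the latter next to it in this order. Near CBS on chromosome 21, WDR4 (-0.19) and PKNOX1 (-0.18) were lower and LINC01679 (0.34) and SIK1 (0.19) higher, and near CHAC2 on chromosome 2 MIR3682 was lower (-0.60).

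**Figure D5:**
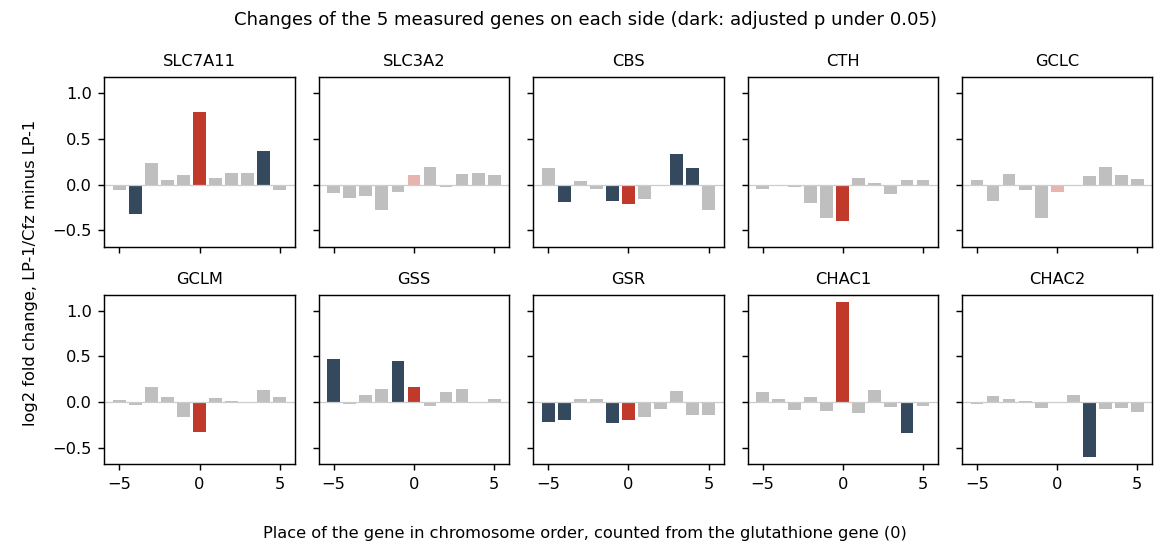
Log2 fold change of each glutathione gene (place 0) and of the 5 measured genes on each side of it in chromosome order, LP-1/Cfz minus LP-1. Red bars are glutathione genes with an adjusted p under 0.05, pale red bars those without, dark bars neighbours that passed and grey bars neighbours that did not. The bars of SLC7A11 and CHAC1 stand above all of their neighbours, while GSR has lower neighbours on its left.

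The genes whose values followed SLC7A11 most closely over the 6 arrays were HAUS7 (Pearson r = 0.999), HAGH (r = 0.999) and ARFGEF3 (r = 0.998). For CHAC1 they were SLC16A10 (r = 0.999), DDC-AS1 (r = 0.999) and YIPF6 (r = 0.999). With 2 groups of 3 arrays such a value mostly reads the difference between the groups, which the arrays share, and all 6 of these genes were higher in LP-1/Cfz, by log2 fold changes of 0.19 to 0.83.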

How the data were processed

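RNA of 3 LP-1/Cfz and 3 LP-1 samples was hybridised to Affymetrix U133 Plus 2.0 arrays, 1 per sample. The authors deposited log2 values made by RMA, as the submitters' processing notes state without a version. No source used here gives the baseline on which probe sets were centred. Scale and direction between arrays are therefore known, and levels are not. Probe sets were named through the array's annotation table: 41091 name 1 gene, 1801 several and 11721 none. The groups were compared with lmFit and eBayes (limma 3.58.1, R 4.3.3), with no covariate, as LP-1/Cfz minus LP-1. P-values were adjusted by Benjamini-Hochberg over the whole table of 54613 probe sets, and again over 19775 genes, each the mean of its single-gene probe sets. An adjusted p under 0.05 counted as passed. The fits were tested on simulated data. No array was left out, and no 2 arrays were identical. Alternatives were other scalings, array weights, a replicate block, a robust fit, other probe set choices, other thresholds and each array left out. All glutathione probe sets and regulators were named, and from other lists up to 3 genes per direction that passed. Members and lists were chosen with earlier results of these data known. The number of arrays limits the precision.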

Additional observations from a re-analysis of the deposited data

How the results depend on the processing

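The rises of SLC7A11 (209921_at, 217678_at and the gene mean) and of CHAC1 passed in every fit. The count of 3 higher probe sets was at least 3 in all fits. The count of 4 lower probe sets became 1 with the replicate block, 0 against a minimum fold change of 1.2 and 0 at a fold change of 1.7. With 1 array left out it was 0 to 3, of which 0 to 2 were among the 4. The 4 lower genes became 1 with the replicate block, 2 with the most variable probe set per gene, 0 at either minimum fold change, and 1 to 2 with 1 array left out. With GSS, the count of higher genes was 2 or 3. Of the 127 further genes, 10 higher and 24 lower, 1 and 3 passed against a minimum of 1.2 and 0 and 3 at 1.7, and 7 to 12 and 13 to 21 with 1 array left out. Differences between pairs of members kept their sign. Replicate numbers showed no pairing (correlations of deviations for same-numbered arrays -0.049, 0.13 and -0.0056), so that the block reads a shared number only. It lowered the probe sets passing from 6014 to 4544 and ended the calls of the CBS, CTH, GSS and GSR means (adjusted p = 0.0558, 0.0718, 0.112 and 0.0897). Signs turned only where changes were near 0 and did not pass. CBS 240517_at had 0.016 with array weights and -0.14 to 0.042 with 1 array left out (0.00034, 0.042 and 0.037 without LP-1/Cfz replicate 3, LP-1 replicate 1 and LP-1 replicate 2). GCLC 1555330_at had -0.083 to 0.015, positive without LP-1 replicate 1. CHAC2 had 0.035 (gene fit 0.038) with array weights and -0.089 to 0.081, positive without LP-1/Cfz replicate 3 (0.032) and LP-1 replicate 2 (0.081). The causes were not tested. A filter on dim probe sets was not run, since centred values hold no signal over background.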
